A study of Mus musculus with 8 samples.

Results

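Immediate early transcription factors are genes that cells switch on within minutes of a growth factor, stress or injury signal, without new protein synthesis, and whose products then set the next wave of transcription. FGF receptors, the receptors that FGF4 binds, signal through RAS and the kinases MEK and ERK to serum response factor (SRF) and its ternary complex partners, which sit at the promoters of *Fos* and the *Egr* genes. The mRNAs are short-lived, so in a tissue sample their level reads the hours or minutes before collection, and in kidney they are also known to rise with ischemia and tubular injury. To describe these genes in diabetic kidney treated with recombinant FGF4 (rFGF4), 10 genes were taken by symbol from the 55401 genes of the deposited expression table. They were *Fos* and *Fosb*, which encode FOS partners of the AP-1 dimer, *Jun*, *Junb* and *Jund*, which encode its JUN partners, the zinc finger factors *Egr1* and *Egr2*, the orphan nuclear receptor *Nr4a1*, the stress-responsive ATF family factor *Atf3*, and *Ier2*, a nuclear immediate early protein. All 10 were found, with 1 row each.

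Bulk kidney RNA was sequenced in 8 libraries, 4 from the db/db model group (library numbers 2, 3, 4 and 5) and 4 from the rFGF4 treatment group (numbers 1, 2, 3 and 5). The sample labels give the genotype db/db model for the first group and only the treatment for the second, while the series design places both groups in *db*/*db* mice, which lack a working leptin receptor and become obese and diabetic. The methods describe male C57BLKS/J *db*/*db* mice that received rFGF4, an N-terminally truncated human protein, at 1 mg/kg or PBS by intraperitoneal injection every other day for 8 weeks, from 12 weeks of age. The study's text, however, names streptozotocin-induced diabetic mice for the sequencing, so the model behind both groups is uncertain, and the labels do not say that each library is a separate mouse. The p-values below therefore measure the spread between these libraries. Urine was collected for 24 h after the last injection and the kidneys were taken after that, so the levels below were not read within minutes of a dose.

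Levels are FPKM, fragments scaled by exon length and by the mapped fragments of the library, which the authors calculated with StringTie, in which 0.0001 stands in place of 0. There are no counts in the table, so the number of fragments behind a value is unknown, and no counting interval was calculated. Relative depth, read from the FPKM ratio most often shared by genes of low level, was 0.905 to 1.12 of that of model library 2. Kidney markers were found in every library, with 654 to 1213 FPKM of *Umod*, which marks the thick ascending limb. The other distal nephron markers listed, *Slc12a1*, *Slc12a3*, *Calb1* and *Aqp2*, were lowest in rFGF4 library 1 (70.3, 20.5, 26.4 and 109 FPKM). Of 4 adipocyte markers, *Retn* was at the floor in all 8 libraries and the list summed to at most 0.579 FPKM. Model library 5 stood apart through 22334 FPKM of the immunoglobulin gene *Igkc*, against 22.4 to 2640 in the other libraries. In bulk tissue, more cells that express a gene cannot be told apart from more RNA per cell.

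Before the values, promoter stretches of 3 members are shown, one each from the JUN, EGR and FOS families whose values follow, with a searched motif in each. Other members also held matches, given after the sequences. Each is the 150 bases before a RefSeq start (GRCm38.p6), on the strand of the gene and outside every exon of GENCODE M21. In *Jun* (chr4:95052223-95052372, minus strand) the capitals mark TGACATCA, a variant AP-1 site that JUN and ATF factors are known to bind. In *Egr2* (chr10:67537416-67537565, plus strand) they mark a CArG box, the sequence that SRF binds. In *Fos* (chr12:85473740-85473889, plus strand) they mark TATAAA, a general core promoter element.
Jun: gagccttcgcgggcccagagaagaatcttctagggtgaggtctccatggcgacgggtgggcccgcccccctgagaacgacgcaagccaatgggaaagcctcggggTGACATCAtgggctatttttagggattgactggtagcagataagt
Egr2: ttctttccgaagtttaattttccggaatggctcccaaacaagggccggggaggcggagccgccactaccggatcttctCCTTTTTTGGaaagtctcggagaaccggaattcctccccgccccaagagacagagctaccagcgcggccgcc
Fos: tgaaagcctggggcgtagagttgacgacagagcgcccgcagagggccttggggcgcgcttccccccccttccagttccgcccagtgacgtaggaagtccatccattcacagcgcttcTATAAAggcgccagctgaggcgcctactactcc

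RefSeq windows, from 250 bases before to 50 bases after a start, were held for 8 of the 10 members, not for *Egr1* or *Ier2*. A CArG box lay in a window of 1 of these 8 members, *Egr2*, and in 1.81% of the 27025 genes with a window. *Egr2* had more windows than any other member. Bases further upstream were not searched, so a CArG box there, in *Fos* or another member, would not be seen. TGACATCA was found for *Jun* alone of the 8 and for 4.18% of all genes, and GCGNGGGCG, a form of the EGR site, for *Fosb* and *Nr4a1* and for 6.27% of all genes. TATAAA was found for *Fos* and *Junb* and for 15.7% of all genes. The full cyclic AMP response element TGACGTCA and the AP-1 site TGANTCA were in no window of the 8 members, and in 2.03% and 8.97% of all genes. Both strands were searched, and each match is a description of the letters only.

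Of the FOS genes, *Fos* was expressed at a moderate level and *Fosb* was close to the floor. *Fos* had 4.99, 13.4, 13.9 and 0.857 FPKM in rFGF4 libraries 1, 2, 3 and 5. It had 0.892, 2.42, 0.966 and 5.57 FPKM in model libraries 2, 3, 4 and 5. Thus rFGF4 libraries 2 and 3 lay above all of the model group, rFGF4 library 1 lay just under model library 5, and rFGF4 library 5 was the lowest of all 8, so the groups overlapped. The mean was 8.28 ± 6.42 FPKM (SD, n = 4) with rFGF4 and 2.46 ± 2.19 (SD, n = 4) in the model group. The log2 fold change of *Fos* was 1.21 on the log2(FPKM + 1) scale, with a 95% interval from -0.41 to 2.83 (limma, unadjusted p = 0.124, adjusted p = 0.918).

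*Fosb*, on chromosome 7 (19302696 to 19310051), was at a very low level throughout. It had 0.240, 0.138, 0.0897 and 0.0182 FPKM in rFGF4 libraries 1, 2, 3 and 5, and 0.00822, 0.0508, 0.0592 and 0.193 FPKM in model libraries 2, 3, 4 and 5. It did not reach the 0.5 FPKM in 4 or more libraries that was required for the limma test. The libraries that were high and low for *Fos* were again spread over both groups, and the difference of 0.06 on the log2(FPKM + 1) scale did not exceed the spread between libraries (two-sided exact permutation test, p = 0.543).

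The 3 *Jun* genes were the most abundant of the set, with *Jund* first in both groups. *Jund*, which is known for steady expression in resting cells, had 83.2, 64.6, 46.8 and 41.1 FPKM in rFGF4 libraries 1, 2, 3 and 5. It had 38.6, 65.4, 40.3 and 77.3 FPKM in model libraries 2, 3, 4 and 5. The ranges lay almost over one another. Its log2 fold change was 0.10 with a 95% interval from -0.58 to 0.78, the narrowest of the 9 members tested, and it turned to -0.03 once each library was divided by its median ratio to a common reference.

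*Jun* had 36.9, 31.8, 36.2 and 9.13 FPKM in rFGF4 libraries 1, 2, 3 and 5, and 6.89, 19.3, 8.36 and 27.5 FPKM in model libraries 2, 3, 4 and 5. In this gene 3 of 4 rFGF4 libraries were above the highest model library, and rFGF4 library 5 was below the model mean. The mean was 28.5 ± 13.1 FPKM (SD, n = 4) against 15.5 ± 9.73 (SD, n = 4) and the log2 fold change 0.86, with a standard error of 0.55. *Junb*, whose product is known to restrain JUN in several settings, had 53.8, 41.5, 22.3 and 7.61 FPKM in rFGF4 libraries 1, 2, 3 and 5. In model libraries 2, 3, 4 and 5 it had 5.11, 12.8, 5.45 and 31.5 FPKM. Here model library 5 exceeded rFGF4 library 3, and the log2 fold change was 1.18 (standard error 0.70). Neither difference passed the test (limma, unadjusted p = 0.154 for *Jun* and 0.130 for *Junb*, adjusted p = 0.918 for each). Exons of other genes lie on the opposite strand of 232 of 3189 exonic bases of *Jun* (*Junos*), 173 of 2301 of *Junb* (*Prdx2*) and 877 of 1668 of *Jund* (*Gm11175*). Whether the counting used strand is not given, so reads from these overlaps could not be assigned to one gene.

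Because *Jund* differed little while *Jun* and *Junb* were higher in the same libraries, the make-up of the *Jun* transcripts was compared within each library, a measure that no scaling between libraries can change and that was chosen after the values were seen. *Jund* made up 47.8%, 46.9%, 44.5% and 71.1% of the summed FPKM of *Jun*, *Junb* and *Jund* in rFGF4 libraries 1, 2, 3 and 5. It made up 76.3%, 67.0%, 74.5% and 56.7% in model libraries 2, 3, 4 and 5. All of the model libraries thus lay above rFGF4 libraries 1 to 3 and rFGF4 library 5 lay among the model libraries. The mean share was 52.6% ± 12.4 (SD, n = 4) with rFGF4 and 68.6% ± 8.90 (SD, n = 4) in the model group, a difference of -16.1 percentage points that did not pass the test (two-sided exact permutation test, p = 0.0857, where 4 against 4 can reach 0.0286). For *Junb* the share was 23.9% ± 8.38 against 14.1% ± 6.18 (SD, n = 4 each, exact permutation p = 0.114).

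**Figure D1:**
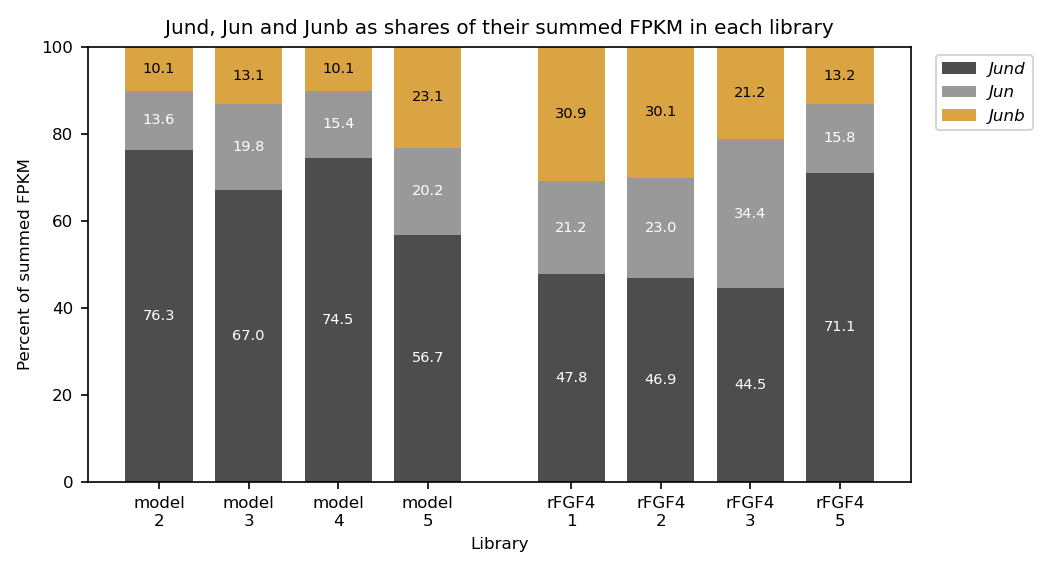
Share of Jund, Jun and Junb (stacked, percent of their summed FPKM, y axis from 0 to 100) in each of the 8 kidney libraries (x axis). Jund takes 44.5% to 47.8% in rFGF4 libraries 1, 2 and 3, and 56.7% to 76.3% in rFGF4 library 5 and the 4 model libraries.

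*Egr1* had the largest log2 fold change among the members in the fit on all 8 libraries and *Egr2* the next, though *Fos* was above *Egr2* without rFGF4 library 1 (1.28 against 0.999), without that library and model library 5 (1.66 against 1.41), without model library 3 (1.27 against 1.26) and with a replicate block (1.08 against 0.84). The fold change with the replicate block rests on library numbers 2, 3 and 5, which occur in both groups. It draws nothing from rFGF4 library 1 and model library 4, whose numbers occur in 1 group only. *Egr1*, a zinc finger factor that ERK signaling is known to induce through SRF, had 16.1, 26.3, 24.8 and 1.36 FPKM in rFGF4 libraries 1, 2, 3 and 5. It had 2.04, 1.86, 0.865 and 9.37 FPKM in model libraries 2, 3, 4 and 5. All of the first 3 rFGF4 libraries were above every model library, and rFGF4 library 5 was lower than model libraries 2, 3 and 5. The mean was 17.2 ± 11.4 FPKM (SD, n = 4) against 3.53 ± 3.92 (SD, n = 4). The log2 fold change of 1.85 had a 95% interval from -0.09 to 3.79 (limma, unadjusted p = 0.0590, adjusted p = 0.918; two-sided exact permutation test, p = 0.114).

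*Egr2*, a paralog known from myeloid cells and Schwann cells, was nearly absent from 4 libraries. It had 6.57, 4.49, 2.90 and 0.0667 FPKM in rFGF4 libraries 1, 2, 3 and 5. It had 0.172, 0.0275 and 2.36 FPKM in model libraries 3, 4 and 5, and it was listed at the floor in model library 2. As with *Egr1*, 3 of 4 rFGF4 libraries lay above the whole model group and rFGF4 library 5 lay within it. The log2 fold change was 1.35 with a 95% interval from -0.12 to 2.83 (limma, unadjusted p = 0.0670, adjusted p = 0.918; two-sided exact permutation test, p = 0.0857). As several values lie below the pseudocount of 1, the fold change of *Egr2* depended on it, and with 0.1 it was 2.70 against 2.17 for *Egr1*.

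*Nr4a1*, which encodes a nuclear receptor with no known ligand requirement that many stimuli induce, differed less. It had 3.49, 16.5, 8.04 and 1.48 FPKM in rFGF4 libraries 1, 2, 3 and 5, and 1.18, 7.68, 1.54 and 5.79 FPKM in model libraries 2, 3, 4 and 5. Only rFGF4 libraries 2 and 3 were above the highest model library, and here rFGF4 library 1, the highest for most other members, was below 2 model libraries. The log2 fold change was 0.61, with a 95% interval from -0.95 to 2.17, and it was 0.13 without rFGF4 library 2. *Atf3*, which is induced by stress kinases and the integrated stress response, had its highest value of all in the model group. It had 7.28, 4.31, 1.67 and 0.719 FPKM in rFGF4 libraries 1, 2, 3 and 5, and 0.618, 1.94, 0.620 and 9.68 FPKM in model libraries 2, 3, 4 and 5. No rFGF4 library exceeded model library 5, and the means of 3.50 ± 2.95 and 3.21 ± 4.35 FPKM (SD, n = 4 each) differed by less than either SD. The log2 fold change of *Atf3* was 0.32 (95% interval -1.28 to 1.93). Its direction turned without rFGF4 library 1 (-0.054) and with a macrophage covariate (-0.029). It also turned with a replicate block, which rests on library numbers 2, 3 and 5 (-0.35). *Ier2* had 27.2, 16.6, 13.7 and 4.87 FPKM in rFGF4 libraries 1, 2, 3 and 5, and 5.46, 6.88, 4.28 and 14.7 FPKM in model libraries 2, 3, 4 and 5. Its rFGF4 libraries 1 and 2 were above the model group, and its log2 fold change was 0.84 (95% interval -0.32 to 1.99).

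**Figure D2:**
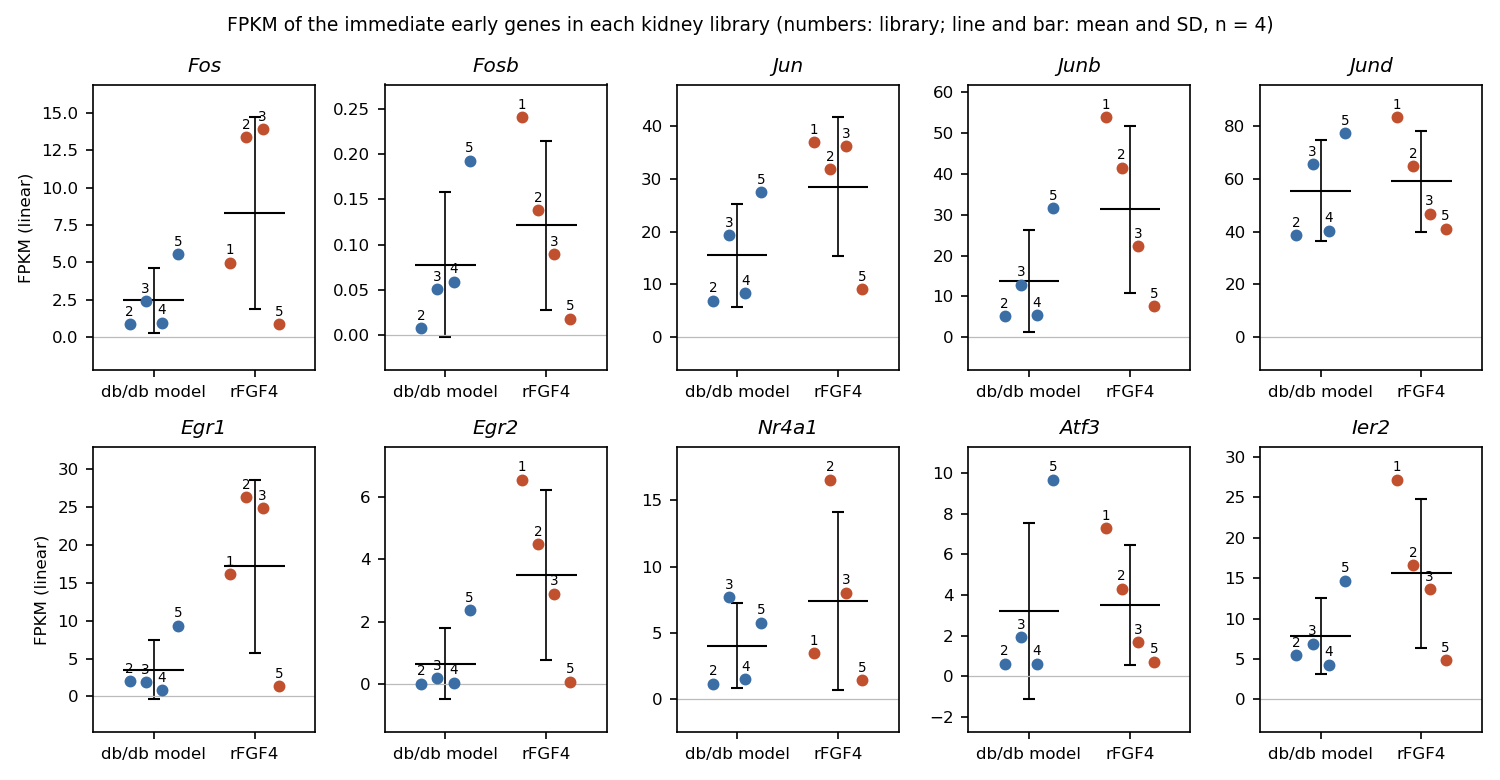
FPKM (linear y axis, own scale per panel) of the 10 members in 4 db/db model libraries (blue) and 4 rFGF4 libraries (red), each point labelled with its library number, with the mean (line) and SD (bar, n = 4). Library 5 of the rFGF4 group sits with model libraries 2 and 4 in most panels, and library 5 of the model group is above the other model libraries in all panels but Nr4a1.

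Across the set, all 9 members tested had a log2 fold change above 0 in the fit on 8 libraries (*Jund* and *Atf3* turned under the alternatives given here), beside 67.1% of the 15150 genes tested, and the median was 0.86 against 0.09 for all genes tested. Dividing each library by its median ratio brought the median of all genes to -0.01 and that of the members to 0.74. Then 8 of the 9 were above 0 (all but *Jund*), beside 47.2% of all genes. The fitted fold change was at least 1.5 for 7 of the 9 (all but *Jund* and *Atf3*), beside 3.44% of all genes. The threshold of the study joins that fold limit to an unadjusted p below 0.05, and limma called 0 of the 9 members by it, beside 1.09% of all genes tested called higher and 0.436% called lower, or 1.52% in either direction. After the scaling, the 165 higher and 66 lower genes became 92 and 89. By limma, 0 members had an unadjusted p below 0.05, beside 4.62% of all genes, and no gene of the 15150 had an adjusted p below 0.05. The p not yet given were 0.754 for *Jund*, 0.395 for *Nr4a1*, 0.656 for *Atf3* and 0.135 for *Ier2* (limma, unadjusted), and the smallest exact permutation p of a member was 0.0857. Groups without overlap were found for 0 members, beside 2.66% of all genes with rFGF4 higher and 3.33% in either direction. The count depended on which libraries were in the fit. Without rFGF4 library 5, 6 members passed the threshold (*Egr1*, *Egr2*, *Fos*, *Ier2*, *Jun* and *Junb*), beside 2.77% of all genes called higher, and the log2 fold change of *Egr1* was 2.67 (limma, unadjusted p = 0.00173, adjusted p = 0.358). Without model library 5, 4 members passed (*Egr1*, *Egr2*, *Ier2* and *Junb*), beside 2.22% of all genes. No label gives a reason to leave out either library. With both rFGF4 library 1 and model library 5 left out, the libraries with the highest macrophage marker levels, 0 members passed, beside 1.33% of all genes called higher, and the median log2 fold change was 1.01 for the members and 0.07 for all genes. Without model library 2, model library 4 or rFGF4 library 2, every tested member moved lower. For example, *Egr1* was 1.77, 1.54 and 1.49. Leaving out rFGF4 library 1, rFGF4 library 3 or model library 3 moved members in both directions. Without rFGF4 library 1 the log2 fold change was 1.28 for *Fos* and 0.79 for *Nr4a1*, both higher than with it, and -0.085 for *Jund*, -0.054 for *Atf3*, 0.51 for *Ier2*, 0.83 for *Junb* and 0.999 for *Egr2*, all lower. Without model library 2 it was -0.053 for *Jund* and 0.026 for *Atf3*. Without model library 3 it was higher for *Nr4a1* (0.95), *Jun* (1.03), *Junb* (1.27), *Fos* (1.27) and *Jund* (0.20). It was then lower for *Egr1* (1.74), *Egr2* (1.26), *Ier2* (0.82) and *Atf3* (0.31).

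**Figure D3:**
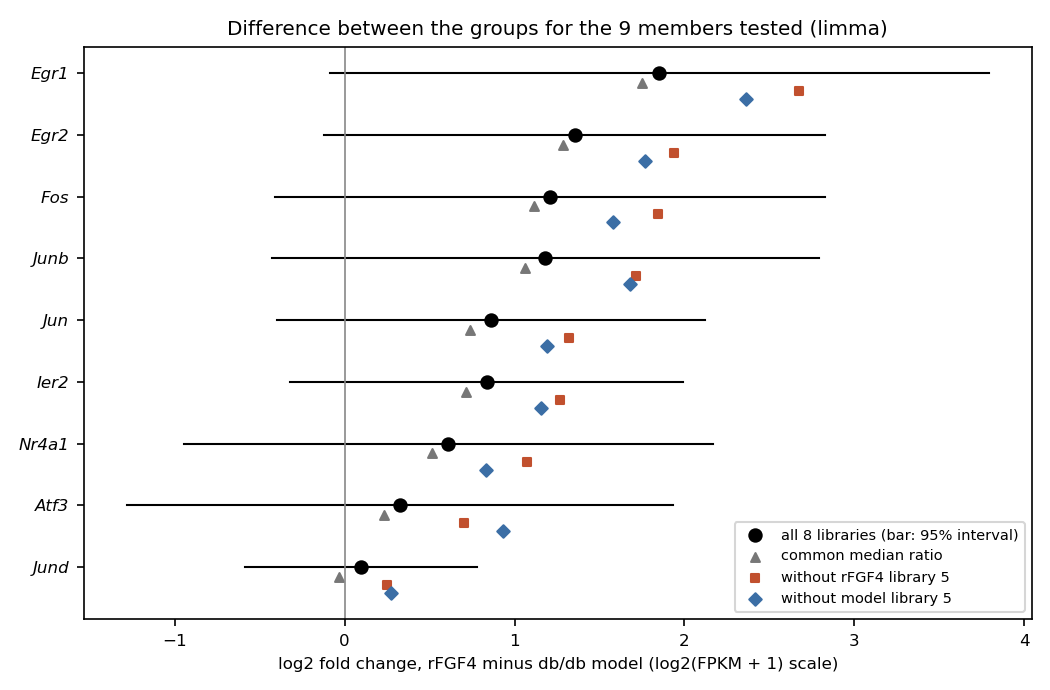
Log2 fold change (x axis, rFGF4 minus db/db model, log2(FPKM + 1) scale) of the 9 members tested, from limma on all 8 libraries with the 95% interval (black), after division by median ratios (triangles), without rFGF4 library 5 (squares) and without model library 5 (diamonds). All 9 intervals of the fit on 8 libraries include 0, and every member lies further to the right without rFGF4 library 5 or without model library 5. The other left-out libraries are not drawn. Some of them moved every member to the left, and the rest moved members in both directions. Without rFGF4 library 1, Atf3 was at -0.054 and Fos at 1.28.

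The order of levels was alike at its ends. By group median, *Jund* was the highest member in the model group (52.9 FPKM) and with rFGF4 (55.7 FPKM), followed by *Jun* (13.9 and 34.0 FPKM) and *Junb* (9.14 and 31.9 FPKM), and *Fosb* was the lowest (0.0550 and 0.114 FPKM). The range of *Jund* did not overlap that of *Jun* in either group. With rFGF4 the order then ran *Egr1*, *Ier2*, *Fos*, *Nr4a1*, *Egr2* and *Atf3*, whereas in the model group it ran *Ier2*, *Nr4a1*, *Egr1*, *Fos*, *Atf3* and *Egr2*. Each neighbouring pair from *Jun* downward overlapped in range, except *Atf3* and *Fosb* with rFGF4, so the middle of the order is not resolved.

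The members varied together over the 8 libraries. The Pearson correlation of log2(FPKM + 1) had a median of 0.842 over the 36 pairs of tested members, from 0.536 for *Fos* and *Jund* to 0.981, a description that includes the difference between the groups and whatever the libraries share. The percent of summed FPKM from mitochondrial genes ran the other way. It was 38.4%, 37.2% and 36.0% in model libraries 2 and 4 and rFGF4 library 5, where the mean standardised member level was -1.04, -1.05 and -0.942. It was 19.0%, 24.7%, 29.8% and 24.4% in rFGF4 libraries 1, 2 and 3 and model library 5, where that level was 0.977, 0.995, 0.545 and 0.684. In model library 3 it was 34.2%, close to that of rFGF4 library 5, with a member level of -0.171. The 4 libraries with the higher shares thus had member levels below 0 and the other 4 above 0, and the part of this share in the members' levels was not tested beyond a rescaling without those genes, under which 0 members passed, beside 2.62% of all genes called higher. The members did not peak in one library. Those with their highest value in rFGF4 library 1 were *Fosb*, *Jun*, *Junb*, *Jund*, *Egr2* and *Ier2*, whereas *Egr1* and *Nr4a1* were highest in rFGF4 library 2, *Fos* in rFGF4 library 3 and *Atf3* in model library 5. Among the other tested genes, those most like the mean of the standardised members were *Xbp1*, an unfolded protein response factor (r = 0.986), *Btaf1* (r = 0.984), the antiproliferative immediate early gene *Btg2* (r = 0.984), the chemokine *Cx3cl1* (r = 0.979) and the inositol phosphate kinase *Ip6k2* (r = 0.977, 8 libraries each). *Xbp1* had 27.3, 27.9, 23.3 and 9.29 FPKM in rFGF4 libraries 1, 2, 3 and 5, and 8.51, 11.6, 9.21 and 23.9 FPKM in model libraries 2, 3, 4 and 5.

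Markers of macrophages, cells that also express *Egr2*, *Atf3* and *Junb*, moved with the members. The summed FPKM of 5 macrophage markers was 427, 183, 59.5 and 34.6 in rFGF4 libraries 1, 2, 3 and 5, and 25.5, 101, 25.7 and 459 in model libraries 2, 3, 4 and 5. The libraries with the lowest sums were also those with the lowest member levels, but rFGF4 library 3 had a sum under that of model library 3 and higher levels of 8 of the 10 members. All 5 macrophage markers had a log2 fold change above 0 and 0 passed the threshold, beside 67.1% of all genes above 0 and 1.09% called higher. With the macrophage mean as a covariate, an alternative chosen after seeing the data, 3 members passed (*Egr2*, *Ier2* and *Junb*), beside 1.25% of all genes called higher, and the log2 fold changes of *Jund* (-0.05) and *Atf3* (-0.03) were below 0. Proximal tubule markers were lowest in rFGF4 library 1, where 5 genes summed to 188 FPKM against 591 to 1050.5 in the other 7 libraries. Of the distal nephron markers, *Slc12a1*, *Slc12a3*, *Calb1* and *Aqp2* had log2 fold changes of -0.44, -0.33, -0.46 and -0.02, against 0.39 for *Umod*. Red blood cell genes were lower with rFGF4, with 5 genes summing to 120 to 2657 FPKM against 1139 to 4325, groups that overlapped. Of the 5, 0 passed the threshold, beside 0.436% of all genes called lower. In the fits without rFGF4 library 5 and without model library 5, in which 6 and 4 members passed, all 5 red blood cell genes passed as lower, with median log2 fold changes of -2.63 and -2.37. Of all 15150 genes, 156 and 96 were called lower in these fits. The part of these cells in the levels of the members was not tested beyond the covariate.

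**Figure D4:**
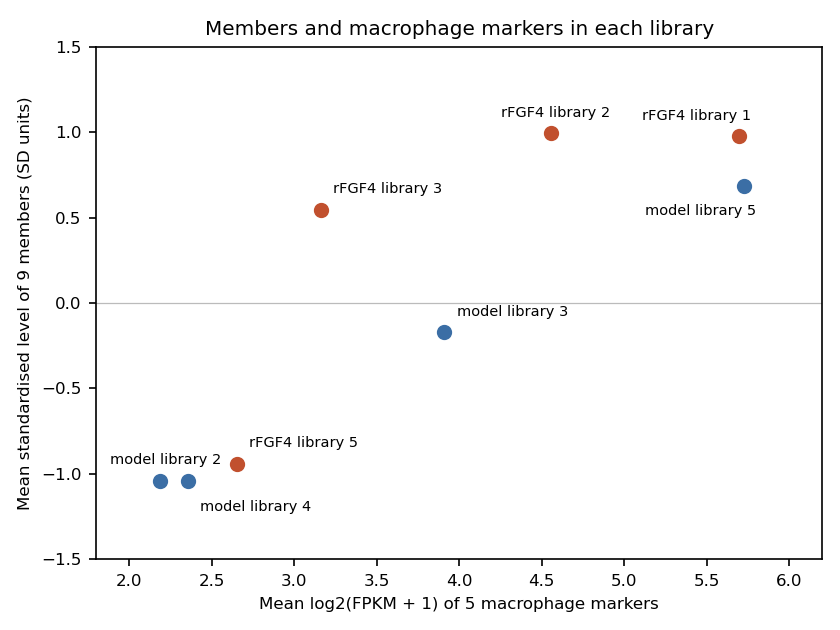
Mean standardised level of the 9 tested members (y axis, SD units over the 8 libraries) against the mean log2(FPKM + 1) of 5 macrophage markers (x axis), 1 point per library, rFGF4 in red and db/db model in blue. Model libraries 2 and 4 and rFGF4 library 5 are low on both axes, and rFGF4 library 3 (0.545) is above model library 3 (-0.171) at a lower marker level.

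Other genes of the response were listed by role. Of 11 other AP-1 genes, 9 were tested, 8 had a log2 fold change above 0 and 2 passed the threshold, beside 67.1% and 1.09% of all genes. After scaling 5 were above 0 and 1 passed, beside 47.2% and 0.607% of all genes. *Maff*, a small MAF factor that lacks an activation domain, was higher, with 15.3, 7.38, 5.83 and 1.36 FPKM in rFGF4 libraries 1, 2, 3 and 5 against 0.806 to 1.11 FPKM in the model group. Here even rFGF4 library 5 was above every model library, and model library 5, at 1.11 FPKM, was close to the others of its group. Its log2 fold change was 1.82 (standard error 0.50, limma unadjusted p = 0.00639, adjusted p = 0.918). *Atf7*, a CREB/ATF factor, had 1.39 to 2.69 FPKM in the model group and 3.15 to 5.41 FPKM with rFGF4. Its log2 fold change was 0.63 (limma, unadjusted p = 0.0119, adjusted p = 0.918). It was under the fold limit after scaling (0.52) and without rFGF4 library 1 (0.51), model library 5 (0.48) or both (0.36), and with a replicate block (0.57). The *Maff* call was kept under every alternative tried. *Batf* had a log2 fold change of -0.000715.

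Of 24 other immediate early genes, 21 were tested, 19 had a log2 fold change above 0, 3 passed the threshold and the median was 0.47, beside 67.1% of all genes above 0 and 1.09% called higher. After scaling 19 were above 0 and 1 passed (*Dusp1*), beside 47.2% of all genes above 0 and 0.607% called higher. *Dusp1*, a phosphatase that switches off the kinases of the ERK, p38 and JNK cascades, was higher, with 13.3, 35.4, 37.2 and 11.6 FPKM in rFGF4 libraries 1, 2, 3 and 5 against 7.54 to 11.3 FPKM in the model group, without overlap. Its log2 fold change was 1.08 (standard error 0.39, limma unadjusted p = 0.0221, adjusted p = 0.918), and the call was lost without rFGF4 library 2 (0.85), rFGF4 library 3 (0.82) or model library 4 (0.98). *Errfi1*, a feedback inhibitor of the EGF receptor, had 58.3 to 110 FPKM in the model group and 73.4 to 358 FPKM with rFGF4, so the groups overlapped. Its log2 fold change was 1.20 (limma, unadjusted p = 0.0333, adjusted p = 0.918). The call was lost after scaling (1.07), without rFGF4 library 2 or 3 or model library 2, 4 or 5 (0.86 to 1.21), and without rFGF4 library 1 and model library 5 together (1.17). *Csrnp1*, a nuclear factor of the same class, had a log2 fold change of 0.62 (limma, unadjusted p = 0.0363, adjusted p = 0.918). Its call was lost when any library but rFGF4 library 5 or model library 3 was left out (0.48 to 0.66), without rFGF4 library 1 and model library 5 together (0.42), after scaling (0.51) and with a replicate block (0.51). *Gadd45b* had the lowest log2 fold change of this list, -0.29.

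To set beside each list of this paragraph, 67.1% of all genes tested were above 0, with a median of 0.09, and 47.2% after scaling. Of all genes, 1.09% were called higher and 4.62% had an unadjusted p under 0.05 (limma). The 14 tested SRF, ternary complex, MRTF, CREB and MEF2 factors, which act upstream, all had a log2 fold change above 0 with a median of 0.13, close to that of all genes. After scaling 11 of these 14 were above 0. None passed the threshold and 1 had an unadjusted p under 0.05, and the values ran from 0.04 for *Mrtfb* to 0.67 for *Mef2d*, which was 0.22 without model library 3, where it had 2.18 FPKM against 8.55 to 11.9 in the other model libraries. Of 10 genes listed for control of the products or mRNAs of immediate early genes (the corepressors *Nab1* and *Nab2*, deadenylase subunits, RNA-binding proteins, among them the mRNA stabiliser *Elavl1*, and the ubiquitin ligase subunit *Fbxw7*), 8 were above 0 with a median of 0.16 and 0 passed, from -0.20 for *Cnot7* to 0.51 for *Zfp36l2*. Of 15 tested AP-1, EGR and SRF target genes, 14 were above 0 with a median of 0.61 and 0 passed. *Timp1*, an inhibitor of matrix metalloproteinases, had the largest value, 1.46 (standard error 1.19), with 69.4, 18.8, 7.83 and 1.22 FPKM in rFGF4 libraries 1, 2, 3 and 5 and 0.491, 7.98, 0.723 and 19.8 FPKM in model libraries 2, 3, 4 and 5. Without rFGF4 library 1 the log2 fold change of *Timp1* was 0.64, and it ran up to 2.30 without rFGF4 library 5. *Ptgs2* had the smallest, -0.05. Of 9 heat shock genes, all had a log2 fold change above 0 with a median of 0.35, 0 passed and 1 had an unadjusted p under 0.05, from 0.06 for *Hsp90aa1* to 0.65 for *Hspb1*. After scaling 8 of 9 were above 0 (*Hsp90aa1* was -0.073), and *Hspb1* turned to -0.042 without rFGF4 library 1 and to -0.42 with a replicate block. The summed FPKM of the heat shock genes was 403 to 667 with rFGF4 and 325 to 512 in the model group, and rFGF4 library 5 was again the lowest of its group. The time from death to freezing is not given in the sources used here, and its part in these levels was not tested.

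**Figure D5:**
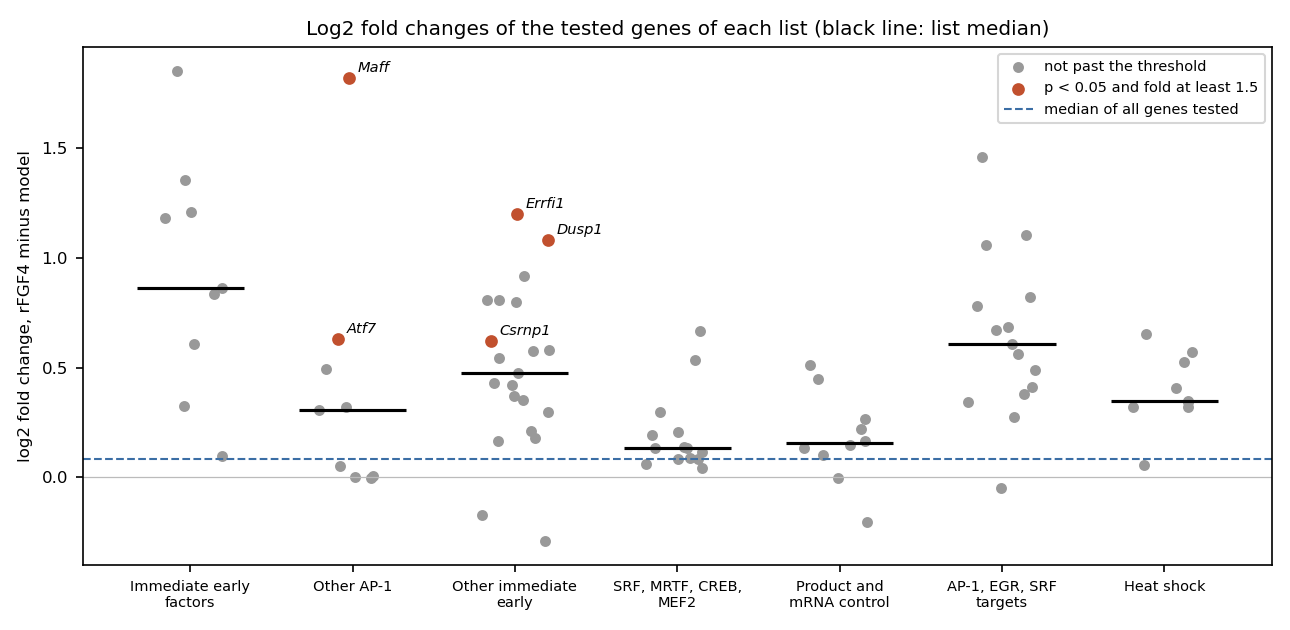
Log2 fold changes (y axis, rFGF4 minus db/db model) of the tested genes of the members and 6 further lists (x axis), with list medians (black lines), the median of all genes tested (dashed, 0.09) and genes past the threshold in red. The medians are 0.86 for the members, 0.61 for the targets, 0.47 for other immediate early genes and 0.13 for the upstream factors, and the named genes are Maff, Atf7, Dusp1, Errfi1 and Csrnp1.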

How the data were processed

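The authors assembled reads with StringTie, merged transcripts with gffcompare and deposited FPKM per gene. The submitters' processing notes name HISAT2 2.0, Bowtie 0.12.2, StringTie 1.3.0 and the build mm8, without roles. Of the table's Ensembl identifiers, 99.5% are in GENCODE M21 (GRCm38), which gave positions. The deposited table also holds the authors' fold change (a ratio), its log2, a p-value and a q-value from edgeR, which were not used. Without counts edgeR could not be run.

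The 15150 genes with at least 0.5 FPKM in 4 or more of 8 libraries entered one limma fit (version 3.58.1, R 4.3.3) on log2(FPKM + 1). Its prior variance followed mean level, and p-values were adjusted over all of these genes by the Benjamini-Hochberg method. The procedure was tested on simulated data. Single values were compared by two-sided exact permutation tests. Members, lists and tests were chosen with earlier results of these data known, so no p is given over a list. Named genes are the members, the list genes past the threshold or at either end of their list, and the 5 most like the members. *Umod*, *Slc12a1*, *Slc12a3*, *Calb1*, *Aqp2*, *Retn* and *Igkc* were named after their values were seen. Of 2 rows named *Ddit3*, the higher was used. Alternatives were another pseudocount, no filter, other scalings, no trend, a fold change of at least 2, a replicate block and each library left out.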

Additional observations from a re-analysis of the deposited data

Results flagged for a closer look

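For the 10 members and the 15 list genes named by rule, a library standing apart from the other 3 of its group was looked for on the log2(FPKM + 1) scale in each group, 50 groups in all. Chance marks about 1 in 20, or 2.5 groups, and 3 were found. *Jun* in rFGF4 library 5 was the lowest of its group at 9.13 FPKM, with a gap that took 0.889 of the group's range. *Egr2* in model library 5 was the highest of its group at 2.36 FPKM, with a gap of 0.869 of the range. *Atf7* in model library 5 was the lowest of its group at 1.39 FPKM, with a gap of 0.836 of the range.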

How the results depend on the processing

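Leaving out each library in turn gave log2 fold changes of 0.84 to 1.85 for *Fos*, 0.57 to 1.32 for *Jun*, 0.83 to 1.72 for *Junb*, -0.085 to 0.28 for *Jund*, 1.49 to 2.67 for *Egr1*, 0.999 to 1.94 for *Egr2*, 0.51 to 1.27 for *Ier2*, -0.054 to 0.93 for *Atf3* and 0.13 to 1.07 for *Nr4a1*, and 0.0069 to 0.106 for *Fosb*. The members past the threshold ran from 0 to 6, list genes called higher from 2 to 20, all genes called higher from 127 to 419 and lower from 51 to 156, and the *Jund* share difference from -22.3 to -13.4 points. *Batf* ran from -0.21 to 0.37, *Gadd45b* from -0.56 to 0.00393, *Mrtfb* from -0.076 to 0.14, *Mef2d* from 0.22 to 0.90, *Timp1* from 0.64 to 2.30, *Ptgs2* from -0.26 to 0.25, *Hspb1* from -0.042 to 1.22 and *Hsp90aa1* from -0.073 to 0.28. *Cnot7* ran from -0.37 to -0.088 and *Zfp36l2* from 0.37 to 0.68. Median-ratio scaling gave *Jund* -0.033, *Mrtfb* -0.042 and *Hsp90aa1* -0.073, with 92 genes and 2 list genes called higher. A pseudocount of 0.1 gave *Egr2* 2.70, *Atf3* 0.55, *Fosb* 0.31, *Batf* 0.12 and *Ptgs2* 0.11, with 249 genes called higher. Rescaling without mitochondrial genes moved the median of all genes to 0.19, with *Egr2* 2.08, *Atf3* 0.55, *Jund* 0.20, *Batf* 0.13, *Ptgs2* 0.070, 396 genes and 9 list genes called higher. A fold change of at least 2 left 48 higher and 6 lower. With the macrophage covariate, *Junb* (0.84), *Egr2* (1.07) and *Ier2* (0.61) passed, 3 members in all with 9 list genes and 101 genes lower, and *Jund* (-0.047), *Atf3* (-0.029) and *Mrtfb* (-0.00434) turned. Without rFGF4 library 1 and model library 5, *Nr4a1* was 1.01, *Atf3* 0.55, *Batf* 0.17 and *Mrtfb* -0.00707, with 3 list genes called. The causes were not tested.

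Library numbers 2, 3 and 5 occur in both groups, and same-numbered libraries did not deviate together (r = -0.229, -0.155 and -0.393 across genes). Pairs with different numbers ran from -0.562 (rFGF4 library 3, model library 5) to 0.567 (rFGF4 library 1, model library 5). Such values cannot show whether the numbers mark pairs or a batch, which the labels do not say. With the replicate block, the fold changes rest on numbers 2, 3 and 5, without rFGF4 library 1 and model library 4. With the replicate block, *Egr1* was 1.40, *Fos* 1.08, *Egr2* 0.84, *Junb* 0.55, *Nr4a1* 0.54, *Jun* 0.48, *Ier2* 0.31, *Jund* -0.21 and *Atf3* -0.35. Of the list genes, *Timp1* was 0.16, *Zfp36l2* 0.27, *Cnot7* -0.42, *Gadd45b* -0.82, *Batf* -0.39, *Mrtfb* -0.089 and *Hspb1* -0.42, and 182 genes and 0 members were called higher. Depth is unknown, so the counting error of low levels, such as those of *Fosb*, could not be calculated.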

Other observations

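Among the genes that varied most like the members, the kidney injury marker *Havcr1*, chosen after its values were seen, ranked 9 with r = 0.970 over the 8 libraries. It had 280, 59.8, 42.2 and 0.675 FPKM in rFGF4 libraries 1, 2, 3 and 5. In model libraries 2, 3, 4 and 5 it had 0.0888, 15.4, 0.555 and 41.7 FPKM, so the groups overlapped and the libraries with the lowest members were also the lowest for *Havcr1*.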
